A study of Mus musculus with 8 samples.

Results

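The core circadian clock loop was examined in the esophagus of mice with and without monoacylglycerol lipase (MGL), the enzyme that degrades the endocannabinoid 2-arachidonoylglycerol. The loop was taken as 8 genes chosen by symbol, namely the activators Bmal1 (listed under its older symbol Arntl), Clock and Npas2 and the repressors Per1, Per2, Per3, Cry1 and Cry2. All 8 were found among the 32849 gene symbols of the deposited table, and all 8 were among the 14864 genes tested after the filter on low counts. The comparison was between 4 libraries from esophagi of MGL KO mice, which lack MGL in the whole body, and 4 from WT mice of the same in-house colony. None of these mice received a treatment, and the study's methods describe young adult animals of both sexes. Neither the labels nor the methods give the sex, the age or the time of day of collection for any one library, so that genotype and time of collection cannot be told apart. RNA came from frozen tissue, was selected for poly(A) tails and was sequenced as 8 libraries.

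The clock is a feedback loop that runs in nearly every cell and is known to time cell division and barrier functions in squamous epithelium. BMAL1 pairs with CLOCK, or with its paralogue NPAS2, binds E-box sequences and activates the Per and Cry genes, whose proteins return to the nucleus and repress that pair. A second loop, in which REV-ERB proteins repress and ROR proteins activate Bmal1, and the output factors DBP, TEF, HLF and NFIL3, which bind D-box sequences, keep the arms out of phase. In most tissues Bmal1 and Npas2 therefore peak when Per3 and Dbp are low.

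The libraries held between 13479069 and 17090152 counts. Mgll, the targeted gene, lay between 12.6 and 15.97 normalized CPM (counts scaled to a common library size) in the MGL KO libraries and between 66.6 and 88.3 in the WT libraries, which fits their labels (log2 fold change of MGL KO over WT -2.57, edgeR adjusted p = 0.000133). The summed level of 4 Y-linked genes lay between 185.6 and 223.7 normalized CPM in all 8 libraries. Each of the 4 genes was at 16.15 normalized CPM or more in every library, so every library held RNA of male tissue. The sum of 9 squamous epithelium genes was lowest in MGL KO replicate 2 (4695 normalized CPM) and WT replicate 3 (5515), against 10216 to 18623 in the other libraries. Skeletal muscle genes, 8 in number, were highest in the same libraries, at 89223 and 75464 normalized CPM, against 36797 to 58641 elsewhere. The 5 airway secretory genes summed to 8386 normalized CPM in MGL KO replicate 4 and to at most 50.8 in the others, and the 5 immune cell genes to 180.0 in WT replicate 1 and at most 60.6 in the others. Airway ciliated cell genes, 7 in number, summed to between 809 and 1232 normalized CPM in the MGL KO and between 415 and 728 in the WT libraries, without overlap. Tppp3, which made up most of that sum in every library, lay at 768 to 886 normalized CPM in MGL KO and at 405 to 712 in WT libraries. The other 6 genes of the list overlapped between the groups, and Foxj1, the defining factor of these cells, was at most 1.65 normalized CPM outside MGL KO replicate 4 (228). At an unadjusted p under 0.05, where 8.65% of all genes tested were, some single markers were lower and others higher in MGL KO. Adgre1 (log2 fold change -1.51) and Itgam (-0.88), macrophage and myeloid genes, and the fast muscle myosin gene Myh4 (-1.33) were lower, with overlapping groups. Adgre1 was highest in WT replicate 1 (48.3 normalized CPM, against at most 19.5 elsewhere). The other skeletal muscle genes had log2 fold changes from -0.18 (Myh1) to 0.34 (Myh2). Higher were Tppp3 (0.70) and, highest in MGL KO replicate 4 and with overlapping groups, Scgb1a1 (9.75), Foxj1 (7.06) and Rsph1 (4.05). Of the smooth muscle genes, Myh11 (321 to 878 normalized CPM) and Acta2 (466 to 796) overlapped between the groups, and most of the list's sum (5887 to 13041) was Des (4674 to 11885), which skeletal muscle also expresses. Sums of adipocyte genes (10.5 to 399.4) and thyroid genes (at most 4.80) overlapped between the groups. No marker of these lists was at 0 in every library, but involucrin (Ivl) stayed at or below 0.80 and Tagln, a smooth muscle marker, at or below 1.11 normalized CPM. The part of these cell types in the clock values was not tested beyond the fits that leave out libraries or carry the Y-linked, skeletal muscle or squamous list as a covariate. In whole tissue, fewer cells of a type and less RNA per cell cannot be told apart.

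Matches to the sequences through which these factors act were sought at the start of each gene. The 250 bases before and 50 bases from the start of the canonical transcript (GENCODE M39 on GRCm39) were searched on both strands for the E-box CACGTG, its variant CACGTT, the D-box TTATGTAA or TTACGTAA, the ROR element TAGGTCA and the cyclic AMP response element TGACGTCA. No 2 matches in the 8 windows shared bases. Among 21757 protein-coding genes, an E-box was found in 7.82%, its variant in 5.0%, a D-box in 1.07%, a ROR element in 2.49% and a cyclic AMP response element in 2.45%. Per3 held 2 D-boxes, beginning 187 and 140 bases before its start. Per2 held 1 D-box, 125 bases before the start, and 1 E-box variant that begins at base 6 of the transcript. Cry1 held an E-box 29 bases and a variant 48 bases before its start. A single E-box lay 22 bases before the start of Per1, and a single variant 106 bases before that of Cry2. In the windows of Bmal1, Clock and Npas2 none of these letters was found, which says nothing about other starts or about the factors.

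The upstream sequences of the 3 Per genes and of Cry1 are shown because these repressors differed from each other in the comparison that follows, and because they hold different elements. Each is written from 5′ to 3′ on the strand of its gene and ends at the base before the start, with the matched elements in capitals. They lie at chr11:68989018-68989267 (forward strand), chr1:91387047-91387296 (reverse strand), chr4:151129141-151129390 (reverse strand) and chr10:85020950-85021199 (reverse strand) of GRCm39.
Per1: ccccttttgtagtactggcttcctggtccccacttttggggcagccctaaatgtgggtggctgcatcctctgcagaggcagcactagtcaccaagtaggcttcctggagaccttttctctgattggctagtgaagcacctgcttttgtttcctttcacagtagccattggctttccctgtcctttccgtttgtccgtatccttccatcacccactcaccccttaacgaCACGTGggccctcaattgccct
Per2: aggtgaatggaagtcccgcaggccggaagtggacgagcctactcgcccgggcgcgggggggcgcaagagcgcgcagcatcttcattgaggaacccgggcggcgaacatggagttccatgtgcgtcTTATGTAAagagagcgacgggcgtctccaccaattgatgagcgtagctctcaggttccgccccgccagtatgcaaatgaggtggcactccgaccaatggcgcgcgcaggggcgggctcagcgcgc
Per3: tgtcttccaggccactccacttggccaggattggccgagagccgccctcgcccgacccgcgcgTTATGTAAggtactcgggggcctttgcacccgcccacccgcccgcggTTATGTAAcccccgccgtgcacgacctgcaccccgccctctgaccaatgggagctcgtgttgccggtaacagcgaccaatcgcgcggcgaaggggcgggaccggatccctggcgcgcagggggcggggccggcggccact
Cry1: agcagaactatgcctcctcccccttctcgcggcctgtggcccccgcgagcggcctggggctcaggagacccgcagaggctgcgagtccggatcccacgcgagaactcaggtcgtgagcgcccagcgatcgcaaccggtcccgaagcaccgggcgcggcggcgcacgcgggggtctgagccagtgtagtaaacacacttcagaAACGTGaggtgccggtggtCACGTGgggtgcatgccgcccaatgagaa

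The comparison of MGL KO with WT esophagi asked, for the loop, what the loss of MGL alone goes with in a healthy esophagus. All 3 activators, Per1 and Cry1 were higher in MGL KO libraries on average and Per3 was lower, while Per2 and Cry2 differed little between the group means. No member passed an adjusted p of 0.05 (0 of 8) in the quasi-likelihood test of edgeR, the test behind each adjusted p unless another tool is named, where 0.0471% of all genes tested did. At an unadjusted p under 0.05 there were 5 members, namely Bmal1, Clock, Npas2, Per3 and Cry1, where 8.65% of all genes tested were. The exact test of edgeR, DESeq2 and limma-voom called 0 of 8 members as well, each with 5 members at an unadjusted p under 0.05, where 7.46%, 9.56% and 11.4% of all genes tested were. In limma-voom the 5 included Per1 (limma-voom unadjusted p = 0.049) in place of Clock (0.058). In Bmal1 and Cry1 the lowest MGL KO value exceeded the highest WT value (2 of 8 members), as in 2.72% of the genes tested. In no member did all MGL KO values lie below the lowest WT value, as in 3.3% of the genes tested. The median log2 fold change (MGL KO minus WT) was 0.81 over the 3 activators and -0.09 over the 5 repressors, against 0.02 over all genes tested.

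**Figure D1:**
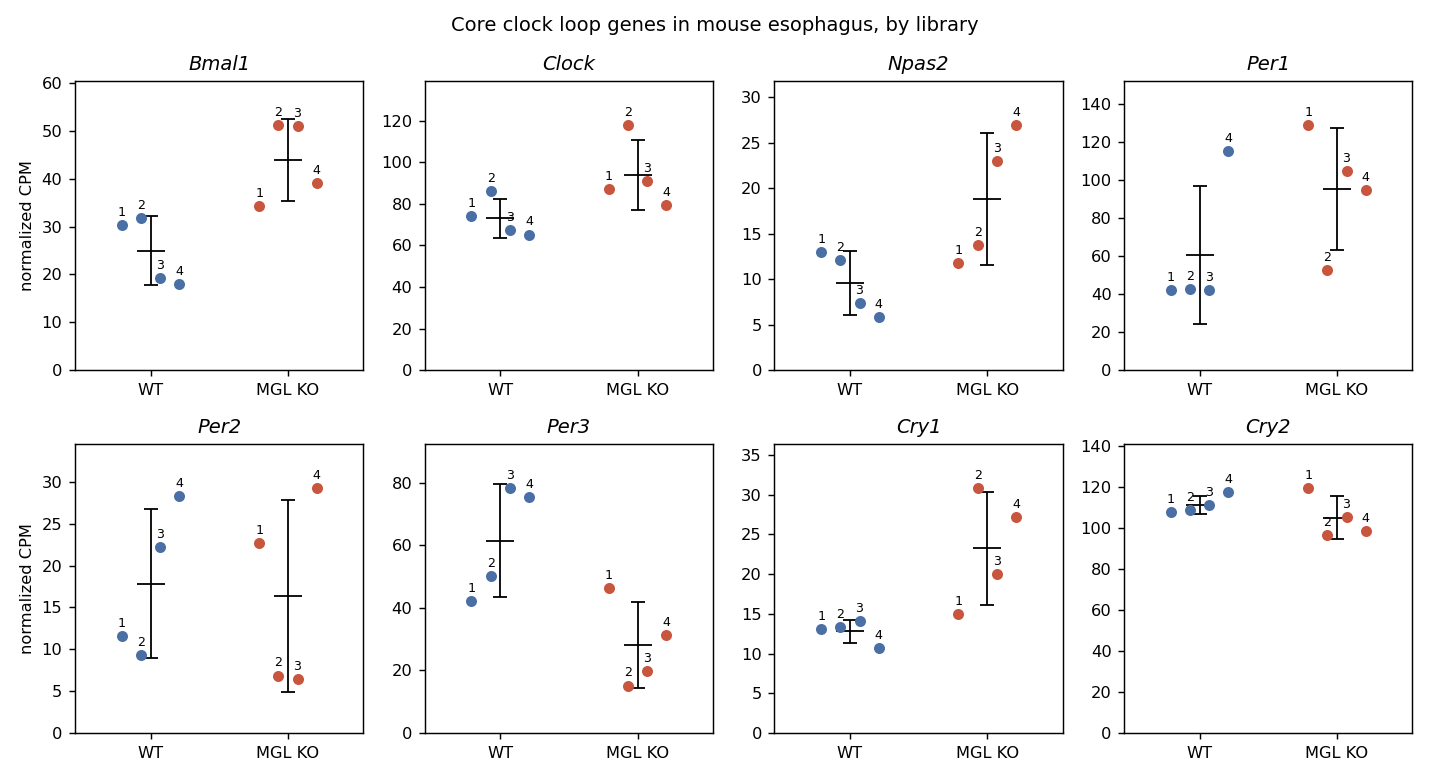
Normalized CPM (vertical axes, starting at 0) of the 8 clock loop genes in 4 WT and 4 MGL KO libraries. Points are libraries numbered by replicate, and bars give the mean and SD of each group. The groups are apart in Bmal1 and Cry1 and overlap in the other genes.

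Bmal1 encodes the partner without which the activator complex does not form. Its level was 34.2, 51.2, 51.1 and 39.0 normalized CPM in MGL KO replicates 1 to 4, and 30.4, 31.8, 19.3 and 18.1 in WT replicates 1 to 4. The lowest MGL KO library was close above the highest WT library, and WT replicates 3 and 4 were well below the other WT libraries. The means were 43.9 ± 8.59 (SD, n = 4) and 24.9 ± 7.22 normalized CPM (SD, n = 4), and the log2 fold change was 0.81 ± 0.22 (standard error; edgeR adjusted p = 0.478). Leaving out each library in turn gave between 0.69 and 0.95. The locus of Bmal1, on chromosome 7 of GRCm39 from 112806152 to 112914735, overlaps 3 gene models on the other strand.

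Clock encodes the more widely used partner of BMAL1 and was the most even of the activators. The MGL KO libraries held 87.0, 118, 90.9 and 79.6 normalized CPM, and the WT libraries 74.0, 86.1, 67.4 and 65.3. Only MGL KO replicate 4 lay within the WT range, below WT replicate 2. The log2 fold change was 0.36 ± 0.14 (standard error; edgeR adjusted p = 0.55). It was 0.23 without MGL KO replicate 2, the library with the highest Clock and the lowest squamous epithelium sum. Clock lies on chromosome 5 from 76342860 to 76452846 and shares its locus with Tmem165 on the other strand and with Gm43658 and the pseudogene Ube2n-ps1 on its own.

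Npas2, which can take the place of Clock and usually cycles more strongly, had the largest difference of the 3 activators. It was at 11.8, 13.7, 22.9 and 26.9 normalized CPM in the MGL KO libraries and at 12.9, 12.2, 7.43 and 5.87 in the WT libraries. MGL KO replicates 1 and 2 were near WT replicates 1 and 2, whereas MGL KO replicates 3 and 4 were above and WT replicates 3 and 4 below them all. The log2 fold change was 0.97 ± 0.34 (standard error; edgeR adjusted p = 0.512), and 0.75 without MGL KO replicate 4, the library with airway genes. Npas2 amounted to between 11.6% and 33.8% of the Clock CPM in MGL KO and between 8.99% and 17.5% in WT libraries. Npas2 lies on chromosome 1 from 39232705 to 39402323, with the gene model Gm3617 inside it on the same strand.

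The PER proteins carry the repressor complex, and the 3 genes ordered the libraries differently. Per1, which glucocorticoids and cyclic AMP also induce directly, was at 129, 52.6, 105.1 and 95.1 normalized CPM in the MGL KO libraries and at 42.4, 42.6, 42.1 and 115 in the WT libraries. Every MGL KO library was above WT replicates 1 to 3, which were nearly alike, and WT replicate 4 was higher than 3 of the 4 MGL KO libraries. The log2 fold change was 0.66 ± 0.39 (standard error; edgeR adjusted p = 0.659), and 1.17 without WT replicate 4, with an adjusted p of 0.683. Per1 lies on chromosome 11 from 68986035 to 69002300 and overlaps the gene model Gm72383 on the same strand.

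Per2, a gene with both a D-box and an E-box variant at its start, spread more within each group than between them. The MGL KO libraries held 22.7, 6.86, 6.47 and 29.3 normalized CPM, and the WT libraries 11.5, 9.36, 22.2 and 28.3. MGL KO replicates 2 and 3 were the lowest of all 8 libraries and MGL KO replicate 4 the highest. The log2 fold change was -0.12, with a 95% interval from -1.36 to 1.12, so differences of more than 2-fold in either direction lie within it. The direction depended on single libraries, since it was positive without MGL KO replicate 2 (0.14), MGL KO replicate 3 (0.15), WT replicate 3 (0.0045) or WT replicate 4 (0.19). Per2 lies on chromosome 1 from 91343700 to 91387069 and overlaps 3 gene models on the other strand.

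Per3, with its pair of D-boxes, was the member with the largest difference in either direction. It was at 46.2, 15.2, 19.7 and 31.4 normalized CPM in the MGL KO libraries and at 42.1, 50.1, 78.4 and 75.3 in the WT libraries. All MGL KO libraries but replicate 1 lay below every WT library, and MGL KO replicate 1 lay between WT replicates 1 and 2. The means of 28.1 ± 13.9 (SD, n = 4) in MGL KO and 61.5 ± 18.1 (SD, n = 4) in WT esophagi gave a log2 fold change of -1.12 ± 0.35 (standard error; edgeR adjusted p = 0.494). It ranged from -1.47 without MGL KO replicate 1 to -0.92 without MGL KO replicate 2. Per3 lies on chromosome 4 from 151081373 to 151129140 and shares its locus with Uts2 on the other strand.

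The CRY proteins are the direct inhibitors of the activator complex, and Cry1 and Cry2 differed from each other in their spread. Cry1, whose start holds an E-box and its variant, was at 14.9, 30.9, 20.04 and 27.1 normalized CPM in the MGL KO libraries and at 13.1, 13.3, 14.1 and 10.7 in the WT libraries. The WT libraries were close together, and MGL KO replicate 1 was just above them. Means were 23.2 ± 7.13 (SD, n = 4) and 12.8 ± 1.48 normalized CPM (SD, n = 4), and the log2 fold change was 0.86 ± 0.22 (standard error). Its edgeR adjusted p, 0.438, was the smallest of the loop. Without MGL KO replicates 2 and 4, the libraries with low squamous and with airway genes, the log2 fold change was 0.45. Cry1 lies on chromosome 10 from 84967560 to 85021252 and overlaps no other annotated gene.

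Cry2 was the steadiest member. The MGL KO libraries held 119.8, 96.6, 105.6 and 98.5 normalized CPM and the WT libraries 108, 109, 111 and 118. All 4 WT values lay inside the range of the MGL KO libraries, and the log2 fold change was -0.09 with a 95% interval from -0.31 to 0.13. Cry1 amounted to between 12.5% and 32.0% of the Cry2 CPM in MGL KO libraries and between 9.07% and 12.7% in WT libraries. The locus of Cry2, on chromosome 2 from 92233894 to 92264474, overlaps D930015M05Rik on the other strand.

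Across libraries, Per3 was low where the activators were high. On the log2 scale, with each gene centred on its mean over the 8 libraries, the 3 activators averaged 0.02, 0.43, 0.55 and 0.43 in MGL KO replicates 1 to 4 and -0.07, -0.01, -0.60 and -0.76 in WT replicates 1 to 4. All MGL KO averages were thus above all WT averages, although MGL KO replicate 1 exceeded WT replicate 2 by little. The 3 Per genes averaged 0.59, -0.95, -0.52 and 0.38 in the MGL KO and -0.32, -0.33, 0.29 and 0.87 in the WT libraries, with no separation of the groups. Both Cry genes together averaged -0.01, 0.35, 0.11 and 0.28 in the MGL KO libraries and between -0.26 and -0.11 in the WT libraries.

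**Figure D2:**
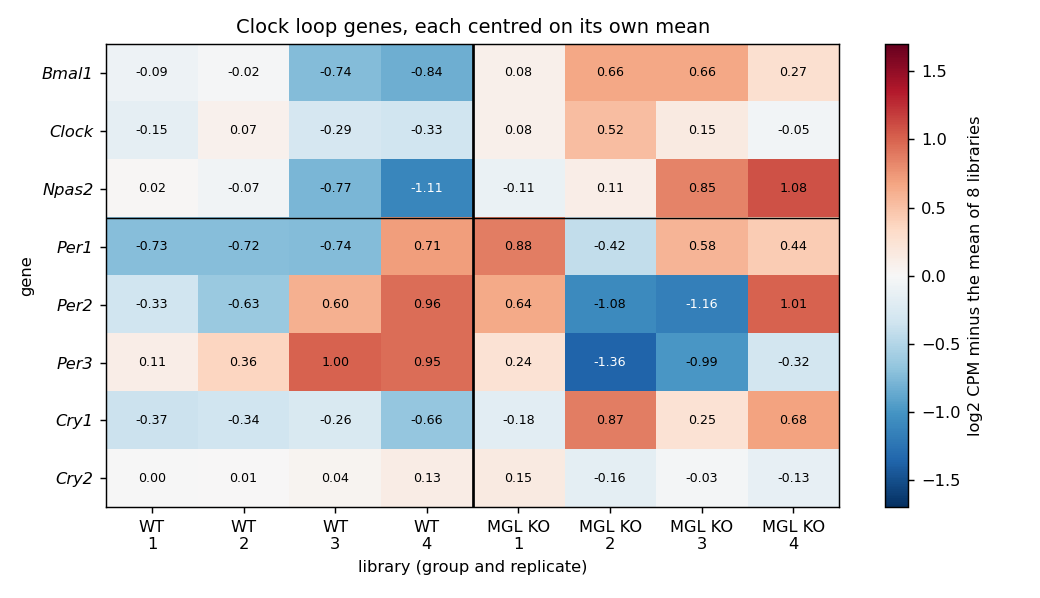
Log2 CPM minus the gene's mean over 8 libraries (colour and number in each cell) for the 8 members (rows) in WT and MGL KO libraries (columns, split by the vertical line); the horizontal line divides activators from repressors. WT replicates 3 and 4 combine low Bmal1 and Npas2 with high Per3, and MGL KO replicates 2 and 3 combine high Bmal1 with low Per3.

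The mean of the activators minus that of the repressors was 0.86 in MGL KO replicate 2 and 0.82 in MGL KO replicate 3, the highest values, and -0.73 in WT replicate 3 and -1.18 in WT replicate 4, the lowest. The other 4 libraries lay between -0.33 and 0.26, with WT replicates 1 and 2 above MGL KO replicates 1 and 4. The groups therefore overlapped in this measure (12 of 16 pairs of libraries higher in MGL KO), with a difference of 0.73 between the group means and an SD of 0.58 in MGL KO and 0.71 in WT libraries.

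Ratios of 2 members are given as a description only, since the pairs were chosen after their values were seen and genes that differ in opposite directions tend to separate the groups in their ratio. Bmal1 CPM divided by Per3 CPM was 0.74, 3.38, 2.60 and 1.24 in MGL KO replicates 1 to 4 and 0.72, 0.64, 0.25 and 0.24 in WT replicates 1 to 4. The lowest MGL KO ratio was next to the highest WT ratio, a narrower gap than in Bmal1 alone. Per1 CPM divided by Per3 CPM was 2.79, 3.47, 5.34 and 3.03 in the MGL KO libraries and 1.01, 0.85, 0.54 and 1.53 in the WT libraries. WT replicate 4, with its high Per1, had the highest of the WT ratios.

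The level of Per1 was set beside 6 tested glucocorticoid response genes, since the hormone acts on Per1 directly. Their mean log2 CPM was 6.88, 6.55, 6.70 and 6.48 in MGL KO replicates 1 to 4 and 6.04, 6.17, 6.02 and 6.63 in WT replicates 1 to 4. The library with the highest Per1, MGL KO replicate 1, had the highest mean, and WT replicate 4, which stood apart from its group in Per1, also did so in this mean. MGL KO replicate 2 was above WT replicates 1 to 3 in both the mean and Per1, and MGL KO replicate 4, with a lower mean than replicate 2, had more Per1 (95.1 against 52.6 normalized CPM). Tsc22d3, which encodes the glucocorticoid-induced protein GILZ, was at 249, 223, 235 and 195 normalized CPM in the MGL KO libraries and at 98.0, 113, 136 and 203 in the WT libraries. Of the 6 genes, 0 passed the adjusted threshold and 2 (Tsc22d3 and Errfi1) had an unadjusted p under 0.05, both higher in MGL KO, against 8.65% of all genes tested, and the median log2 fold change over the list was 0.38. In Errfi1, a feedback inhibitor of the EGF receptor, all MGL KO libraries (43.5 to 61.5 normalized CPM) were above all WT libraries (21.2 to 37.9). Of 6 genes that respond to cyclic AMP through CREB, 0 passed the adjusted threshold and 3 (Fos, Egr1 and Nr4a1) had an unadjusted p under 0.05, again higher in MGL KO and against the same 8.65%, with a median log2 fold change of 0.43. The mean log2 CPM of this list was 5.97, 5.37, 5.005 and 5.55 in MGL KO replicates 1 to 4. It was 4.63, 4.88, 4.89 and 4.84 in WT replicates 1 to 4. WT replicate 4, with its high Per1, thus lay within its group in this mean and below every MGL KO library. In Fos, which belongs to this list, every MGL KO library (19.0 to 120.4 normalized CPM) was above every WT library (5.30 to 10.2). The part of these responses in the Per1 values was not tested.

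**Figure D3:**
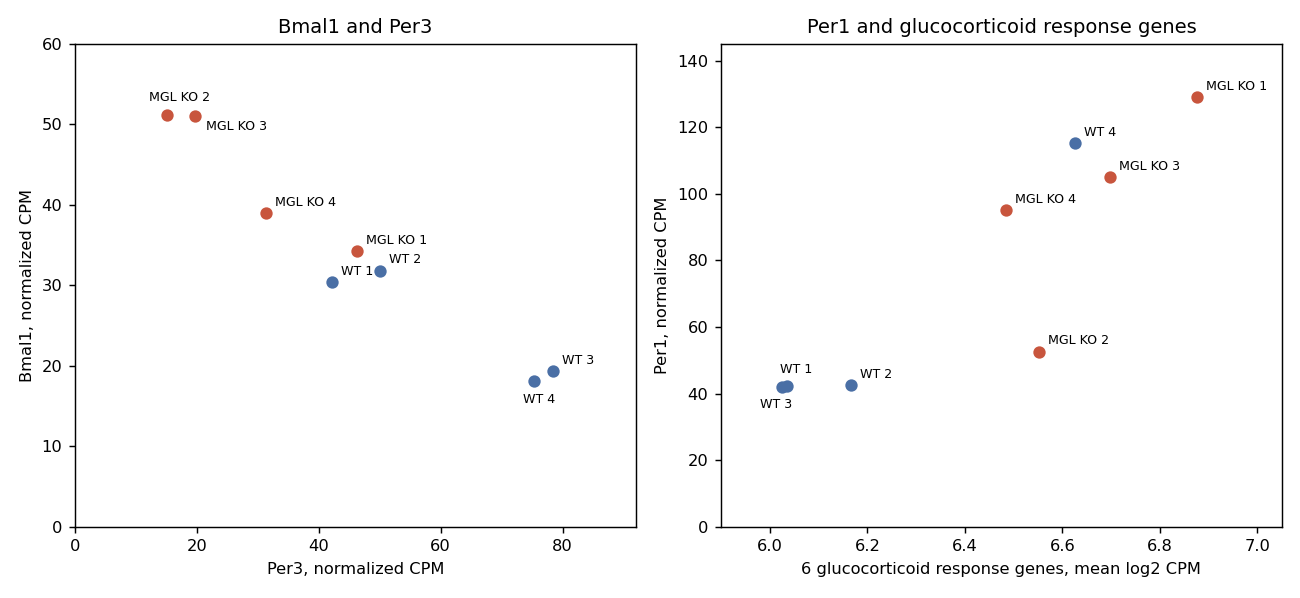
Left, Bmal1 against Per3 in normalized CPM; right, Per1 in normalized CPM against the mean log2 CPM of 6 glucocorticoid response genes, with 1 point per library (blue WT, red MGL KO). Bmal1 is high where Per3 is low, and WT replicate 4, at 115 normalized CPM of Per1, lies with the MGL KO libraries in the right panel.

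The second loop and the output genes were read from a list of 12 genes, of which 11 were tested. None passed the adjusted threshold, 3 (Dbp, Tef and Nfil3) had an unadjusted p under 0.05, against 8.65% of all genes tested, and 8 of 11 were lower in MGL KO, with a median log2 fold change of -0.37. Dbp, a D-box activator that BMAL1 drives through E-boxes, was at 60.6, 29.5, 18.6 and 19.3 normalized CPM in MGL KO replicates 1 to 4 and at 57.3, 61.9, 125.2 and 108.7 in WT replicates 1 to 4. As with Per3, MGL KO replicate 1 was among the WT libraries, and the other MGL KO libraries were below them all. The log2 fold change of Dbp was -1.46 ± 0.42 (standard error; edgeR adjusted p = 0.478). Its paralogue Tef was at 292, 172, 177 and 181 normalized CPM in the MGL KO libraries and at 248, 273, 379 and 372 in the WT libraries.

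Nfil3, which encodes the repressor that competes for D-boxes, was the 1 gene of the 11 in which the groups did not overlap, with all MGL KO libraries higher, as in 2.72% of all genes tested. It was at 13.0, 34.4, 26.1 and 19.95 normalized CPM in the MGL KO libraries and at 6.53, 6.22, 7.10 and 6.06 in the WT libraries. The log2 fold change was 1.85 ± 0.27 (standard error; edgeR adjusted p = 0.0966). Nfil3 did not pass here but passed in 6 of the 21 alternatives, namely the exact test (filtered or not), DESeq2, the skeletal muscle and squamous covariates, and without MGL KO replicate 1. The study itself, with the exact test of edgeR, lists both Nfil3 and Fos among its genes at a false discovery rate under 0.05. The REV-ERB genes Nr1d1 and Nr1d2, repressors of Bmal1, had log2 fold changes of -0.31 (standard error 0.18) and -0.44 (standard error 0.20). Rora, which encodes an activator of Bmal1, was at 0.16 (standard error 0.20), and its paralogue Rorb was at or below 0.33 normalized CPM and was not tested. These values and those of the members come from the same libraries and are no independent evidence for each other.

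**Figure D4:**
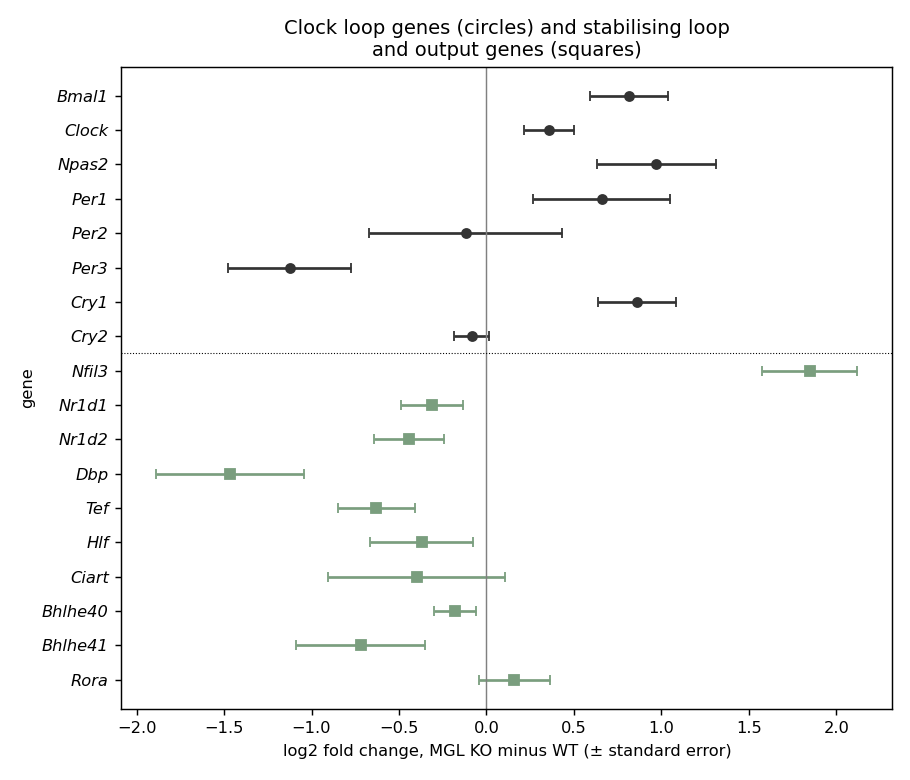
Log2 fold change, MGL KO minus WT, with its standard error (horizontal axis) for the 8 clock loop genes (circles) and 10 of the 11 tested genes of the second loop and outputs (squares). Nfil3 (1.85) and Npas2 (0.97) have the highest values, and Dbp (-1.46) and Per3 (-1.12) the lowest.

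The enzymes and partners that act on PER and CRY proteins differed less. Of 14 listed genes, which include the casein kinase genes Csnk1d and Csnk1e, 13 were tested and 0 passed the adjusted threshold, with log2 fold changes from -0.19 to 0.24 (median 0.06) and 1 gene, Prkaa1, at an unadjusted p under 0.05. A share of 1 in 13 is near the 8.65% of all genes tested. In Prkaa1, a catalytic subunit of AMP-activated protein kinase, which marks CRY proteins for degradation, MGL KO libraries (43.9 to 53.4 normalized CPM) lay above WT libraries (42.2 to 43.5). All 9 paralogues and co-regulators of BMAL1 and CLOCK were tested and 0 passed, with a median log2 fold change of 0.09. At an unadjusted p under 0.05 there was 1 of 9, Bmal2, again a share near that of all genes. Bmal2, the paralogue of Bmal1, had a log2 fold change of -0.56 ± 0.22 (standard error; edgeR adjusted p = 0.55), opposite in sign to Bmal1. Crebbp, a histone acetyltransferase gene, was at 63.8 to 77.6 normalized CPM in MGL KO and at 59.99 to 62.5 in WT libraries.

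Likeness of pattern was measured as the root mean square difference of centred log2 CPM over the 8 libraries, for the 14863 other genes tested. The nearest gene to Bmal1 was Ube2c (0.19), a gene of the mitotic ubiquitin ligase, followed by Nuak1 (0.20), Nusap1 (0.23), Cks2 (0.23) and Pif1 (0.23). Among the other members, Clock ranked 60, Cry1 71, Npas2 154, Cry2 7556, Per1 12090, Per2 14280 and Per3 14341. With signs turned around, the nearest gene to Bmal1 was Tef (0.19), before Tll2 (0.19), Rsad1 (0.20), Inmt (0.23) and Dhtkd1 (0.23), with Nr1d2 at rank 29, Hlf at 39 and Per3 at 67. Other repressors and outputs ranked further down as mirrors of Bmal1. Cry2 was at rank 1340, Nr1d1 at 1491, Dbp at 4815, Ciart at 6334, Per2 at 9067 and Per1 at 13303. This measure counts the size of a difference as well as its direction. Dbp, at rank 14536 in the same direction as Bmal1, had a log2 fold change of -1.46 against 0.81 for Bmal1. With signs turned around, the nearest gene to Per3 was Bmal1 (0.34), before Ska1 (0.36), Mthfd2 (0.37), Nuak1 (0.38) and Myod1 (0.38), with Nfil3 at rank 7, Cry1 at 16, Npas2 at 80, Clock at 154, Cry2 at 8685 and Per1 at 11430. In the same direction, Tef ranked 18, Dbp 53, Per2 882 and Cry2 2167 for Per3, and the nearest genes were Gm36608 (0.30), Gm26788 (0.30), Mkrn3 (0.30) and Qprt (0.32), all with a mean of at most 2.57 normalized CPM.

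Levels of different genes were compared per kilobase of annotated exon (RPKM). In WT esophagi the order was Cry2 (13.0 ± 0.52, SD, n = 4), Per1 (7.91 ± 4.76), Per3 (5.86 ± 1.72), Clock (4.24 ± 0.54), Per2 (2.72 ± 1.36), Cry1 (2.57 ± 0.30), Bmal1 (2.15 ± 0.62) and Npas2 (1.75 ± 0.64). The ranges of all neighbours in this order overlapped. In MGL KO esophagi Per1 (12.5 ± 4.17 RPKM, SD, n = 4) and Cry2 (12.2 ± 1.22) came first and overlapped, and Cry2 was the only member whose range was clear of the next, Clock (5.44 ± 0.97). Per3 was seventh of the 8 there, at 2.68 ± 1.32 RPKM, where it came before Clock in WT. Exon lengths were summed over all annotated transcripts, which lowers the RPKM of genes with many isoforms such as Clock.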

How the data were processed

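RNA was measured in 4 MGL KO and 4 WT libraries from frozen esophagi, with groups taken from the sample labels. The authors selected poly(A) RNA, checked reads with FastQC 0.11.9, trimmed them with Cutadapt, aligned them to GRCm39 with STAR 2.7.10b (per the labels) and deposited raw counts per gene symbol. The counting tool, annotation and strand setting are not given in the sources used here, so reads of overlapping genes carry that uncertainty.

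Of 22721 symbols with a count, 14864 were kept by filterByExpr (minimum count 10). Normalized CPM used the sizes of the kept genes and TMM factors (0.82 to 1.11). MGL KO was compared with WT by the quasi-likelihood test of edgeR 4.0.16 in R 4.3.3, with p-values adjusted by the Benjamini-Hochberg method over all genes tested. The exact test named in the study's methods, DESeq2 1.42.0, limma 3.58.1 (voom with quality weights), other factors and filters, covariates, the replicate block and leaving out libraries were alternatives. The scripts were tested on simulated data. Log2 CPM used a prior count of 1. Standard errors are the log2 fold change over the square root of the F statistic. The members and lists were chosen with earlier results of these data known. Genes named were all members, Mgll, genes of the other clock lists whose groups did not overlap, and the 5 genes nearest in pattern, in either direction, to Bmal1 and to Per3, of which 1 for Per3 is not reported here, nor is 1 gene of the second loop. Other listed genes were named after their values were seen. Gene positions and starts came from GENCODE M39. A member had between 76 and 2107 counts in a library, and the upper limit for a gene without counts (3 counts, for counting error only) was 0.167 to 0.271 normalized CPM. The labels do not tie each library to its own mouse, so p-values measure only the spread between these libraries. Within groups, the chi-square per degree of freedom between libraries was at least 13.6, so none was counted as a repeat.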

Additional observations from a re-analysis of the deposited data

Results flagged for a closer look

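Of 30 groups of 4 values compared, 3 had a library far from the other 3 of its group, where chance gives about 1.5. Per1 was high in WT replicate 4, at 115.2 normalized CPM, where the next WT library had 42.6. Crebbp was high in MGL KO replicate 2, at 77.6 normalized CPM against at most 65.4 in the others of its group. Fos was low in WT replicate 1, at 5.30 normalized CPM against at least 9.52.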

How the results depend on the processing

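No clock loop gene passed the threshold in any of the 21 alternatives, with 3 to 5 of the 8 members at an unadjusted p under 0.05, where 4.92% (replicate block) to 15.3% (skeletal muscle covariate) of all genes tested were. The smallest adjusted p over them came from DESeq2, at 0.0538 for Cry1, 0.0753 for Bmal1 and 0.108 for Per3. Bmal1, Clock, Npas2, Per1, Per3 and Cry1 kept their direction in all 21. Per2 turned positive without MGL KO replicate 2 (0.14), MGL KO replicate 3 (0.15), WT replicate 3 (0.0045) or WT replicate 4 (0.19), (range over single libraries left out, -0.56 to 0.19), and Cry2 without both MGL KO replicates 2 and 4 (0.017), a setting chosen after seeing the data. The count of 2 members whose groups did not overlap was 2 to 5 with 1 library left out, and 5 without MGL KO replicate 1 (Bmal1, Npas2, Per3, Cry1 and Cry2), where 8.23% of all genes tested did not overlap (7.88% to 10.8% over the 8 libraries left out). The difference between activators and repressors of 0.73 was 0.46 to 0.96 with 1 library left out. Among the 45 other tested genes of the lists, 0 passed, with 10 at an unadjusted p under 0.05 (8.65% of all genes). The exact test called 3 (Errfi1, Fos and Nfil3; 65 of all 14864 genes), the exact test without the filter 2 (Fos and Nfil3; 42 of 22721) and DESeq2 4 (Dbp besides those 3; 138 of 14864). Nfil3 was the 1 gene called with the skeletal muscle covariate, with the squamous epithelium covariate and without MGL KO replicate 1, and leaving out 1 library gave 0 or 1. The cause was not tested. With the replicate number as a block, 0 of 8 members and 0 of the other genes passed. The deviations of same-numbered libraries correlated at -0.14, -0.28, -0.14 and 0.08 across 14864 genes. Those of differently numbered libraries correlated at between -0.36 and 0.46. These values therefore cannot tell whether same-numbered libraries have more than a number in common.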
